A study of Mus musculus with 12 samples.

Results

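Cone phototransduction genes encode the proteins with which cone photoreceptors turn light into an electrical signal. The 10 genes examined were matched by symbol in the count table, each to 1 row of the 36131 genes measured: the opsins Opn1sw and Opn1mw, the transducin subunits Gnat2, Gnb3 and Gngt2, the phosphodiesterase subunits Pde6c and Pde6h, the channel subunits Cnga3 and Cngb3, and the cone arrestin Arr3. All 10 passed the filter on low counts. RNA was from retinas of 12 C57BL/6J wildtype mice at P18, 1 library per mouse and 4 mice per group. RA-PBS mice (animals 1 to 4) stayed in room air and received PBS. O2-PBS mice (animals 5 to 8) were in 75% O2 from P7 to P12 and received PBS. O2-IC100 mice (animals 9 to 12) had the same oxygen exposure and received IC100, a humanized antibody against the inflammasome adaptor ASC, at 10 μg/g. Injections were on P12, P14 and P16, intraperitoneal by the labels. The paper names the eye as the place of its PBS placebo injections, so a difference in route between the PBS groups and the IC100 group cannot be told apart from IC100. This is the oxygen-induced retinopathy model, in which hyperoxia injures newly formed retinal capillaries and the return to room air is followed by abnormal vessels. Cones are a small minority of mouse photoreceptors, and in whole retina fewer cones and less RNA per cone cannot be told apart.

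In a cone, light changes an opsin, the opsin activates transducin, and transducin releases the catalytic phosphodiesterase from its inhibitory subunit. The enzyme breaks down cyclic GMP, the cyclic nucleotide-gated channel closes and the cell hyperpolarizes, and arrestin binds the opsin to end the response. Mouse cones commonly hold both opsins, the short-wavelength one dominating in the ventral retina and the middle-wavelength one in the dorsal retina. Rods run the same cascade with related proteins. Gnb3 is not specific to cones, since ON bipolar cells also use it.

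The sequence before the gene start is shown for 4 members because 2 of them are opsins of opposite retinal gradients and the other 2 are the transducin and the arrestin of the same cells. Each window is the 250 bases before the start in RefSeq, build GRCm38.p6, written 5′ to 3′ on the gene's strand. Capitals mark TAATC or its reverse complement GATTA, the core of the site of the photoreceptor homeodomain factors CRX and OTX2.
Opn1sw (chr6:29380514-29380763, minus strand): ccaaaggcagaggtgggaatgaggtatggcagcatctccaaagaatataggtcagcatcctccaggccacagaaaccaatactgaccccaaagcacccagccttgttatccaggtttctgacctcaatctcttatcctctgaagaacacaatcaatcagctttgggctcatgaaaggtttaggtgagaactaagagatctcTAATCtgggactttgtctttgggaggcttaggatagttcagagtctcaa
Opn1mw (chrX:74127216-74127465, plus strand): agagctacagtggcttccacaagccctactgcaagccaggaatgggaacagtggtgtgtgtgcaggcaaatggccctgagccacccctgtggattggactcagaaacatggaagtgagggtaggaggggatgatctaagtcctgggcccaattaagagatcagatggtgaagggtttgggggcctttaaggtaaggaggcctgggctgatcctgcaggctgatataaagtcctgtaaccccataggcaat
Gnat2 (chr3:108092816-108093065, plus strand): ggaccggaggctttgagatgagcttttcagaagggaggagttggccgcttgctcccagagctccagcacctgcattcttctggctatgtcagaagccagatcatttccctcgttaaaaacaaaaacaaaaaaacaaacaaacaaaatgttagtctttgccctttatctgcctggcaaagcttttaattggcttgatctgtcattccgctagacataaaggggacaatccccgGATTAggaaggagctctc
Arr3 (chrX:100605247-100605496, plus strand): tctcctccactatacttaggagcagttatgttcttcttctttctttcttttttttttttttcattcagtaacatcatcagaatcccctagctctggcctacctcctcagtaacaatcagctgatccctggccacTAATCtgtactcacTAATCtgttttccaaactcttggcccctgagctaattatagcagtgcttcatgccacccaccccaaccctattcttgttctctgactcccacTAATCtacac
The Opn1sw window held 1 match, 49 bases before the start, and the Gnat2 window held 1, 18 bases before the start. The Arr3 window held 3, at 116, 102 and 10 bases, and the Opn1mw window held none. RefSeq windows were at hand for 6 of the 10 members, and 3 of these 6 held the core on either strand, against 19.8% of all 32851 promoter windows. Members were counted by gene and the background by window, and neither of the Cnga3 windows held the core. Of the 6 rod counterparts with a window, 5 held it. The 6-base motif AGGTCA, bound by nuclear receptors, was found at 2 places in the Opn1sw window, and 14% of all windows held it at least once. The windows of Gnb3, Gngt2, Pde6c and Cngb3 were not analysed here.

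O2-IC100 animal 10 stood apart in every member. Lens crystallin genes took 56.1% of its counts, against 0.0044 to 4.27% in the other 11 retinas, and the 10 rod counterparts took 0.384% against 4.06 to 5.04%. The summed level of the 10 cone genes was 221 normalized CPM (counts scaled to a common TMM library size) in animal 10 and 1255 to 1678 in the others. Values below are from the fit without animal 10 unless stated, and those of all 12 retinas follow where they change a direction or a call. Total counts were 14907143 to 24438082 per retina. The RA-PBS retinas of animals 2, 3 and 4 also held crystallin counts (1.2, 4.27 and 1.36%), while RA-PBS animal 1 and the O2 retinas other than animal 10 were at most at 0.0166%. Genes on the Y chromosome were present in 7 retinas and near absent in 5. Near absent were 1 of the RA-PBS retinas, 3 of the O2-PBS retinas and animal 10.

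**Figure D1:**
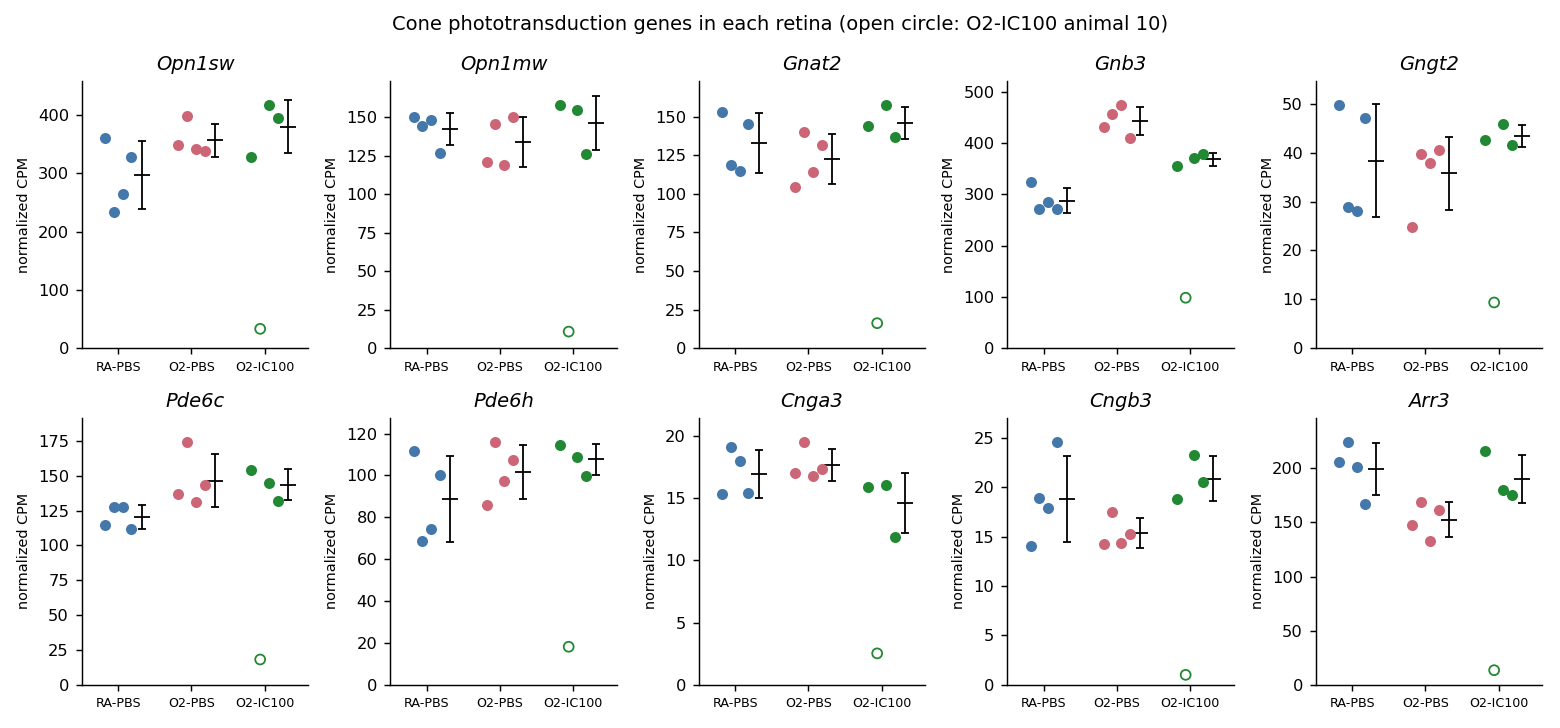
Normalized CPM of each cone phototransduction gene (y axis) in each retina by group (x axis), with the mean and SD of each group drawn without O2-IC100 animal 10, which is the open circle. Animal 10 is the lowest retina for every gene, and the O2-PBS points of Gnb3 lie above all RA-PBS points.

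Among all 12 retinas, edgeR's quasi-likelihood test called no member in any of the 3 comparisons, and no member had an unadjusted p under 0.05. A call needed a fold change of at least 1.5, p under 0.05 and a Benjamini-Hochberg adjusted p under 0.1. Of the 16489 genes tested, 0.807% were called between O2-PBS and RA-PBS, 0% between O2-IC100 and O2-PBS and 0% between O2-IC100 and RA-PBS. In the same order, 7.12, 16.9 and 13.2% of these genes had an unadjusted p under 0.05. DESeq2 on the same 12 retinas called none of the members either. With animal 10 in the fit the median standard error of the members' log2 fold changes was 0.47 for O2-PBS against RA-PBS. Without it the value was 0.12.

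Hyperoxia with PBS was compared with room air with PBS. Without animal 10, Gnb3 rose and was the only member called, Arr3 and Pde6c moved by less than the required fold, and the other 7 members did not pass. In this fit 6.27% of 16688 genes were called, so 1 of 10 members is near that background. At an adjusted p under 0.1 with no fold minimum, 3 of 10 members passed against 12.4% of genes. The members' median log2 fold change was -0.02, with 5 higher and 5 lower, and that of all genes was -0.01. The unadjusted p was under 0.05 for 3 of 10 members, against 21.9% of all genes. Groups did not overlap for 2 of 10 members, Gnb3 and Pde6c, against 14.4% of all genes.

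Gnb3, the transducin beta subunit of cones and ON bipolar cells, was at 323, 271, 286 and 271 CPM in RA-PBS. In O2-PBS it was at 431, 457, 473 and 409.6 CPM, so all 4 O2-PBS retinas lay above all 4 RA-PBS retinas. The difference was 1.54-fold, log2 0.62 (SE 0.09, 95% interval 0.43 to 0.81, adjusted p = 0.000852). Among all 12 retinas the log2 fold change was the same, 0.62, with SE 0.33 and adjusted p = 0.82. Lens RNA was low in every O2-PBS retina and high in 3 of the 4 RA-PBS retinas, and with the crystallin level as a covariate the log2 fold change fell to 0.49 (adjusted p = 0.00877), under the fold minimum. Correcting for length and GC content of the transcripts gave 0.56 (adjusted p = 0.0028), also under it.

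The ON bipolar cells are the other source of Gnb3. Of the 8 genes of the ON bipolar list, none was called between O2-PBS and RA-PBS without animal 10, 7 were lower, and their median log2 fold change was -0.19. Isl1, a transcription factor of ON bipolar and other inner retinal neurons, had a log2 fold change of -0.31 (adjusted p = 0.0142) and Gng13, the gamma subunit that pairs with Gnb3 in ON bipolar cells, -0.58 (adjusted p = 0.0837). Both were under the fold minimum. The summed ON bipolar level was 1063 to 1481 normalized CPM in RA-PBS and 1069 to 1284 in O2-PBS. The level of Gnb3 in cones and in bipolar cells was not measured apart.

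Arr3, which binds the activated cone opsin, was at 205, 224, 202 and 167 CPM in RA-PBS and at 147, 169, 133 and 161 CPM in O2-PBS. The groups overlapped only in RA-PBS animal 4 and O2-PBS animal 6, at 167 and 169 CPM. The log2 fold change was -0.39 (SE 0.11, adjusted p = 0.0435), a 23.6% lower level and under the fold minimum. Arr3 lies on the X chromosome, and Y-linked RNA was present in 3 of 4 RA-PBS and 1 of 4 O2-PBS retinas. With the Y-linked level as a covariate the log2 fold change was -0.28 (adjusted p = 0.175).

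Pde6c, the catalytic phosphodiesterase subunit, was at 115, 128, 128 and 112 CPM in RA-PBS. In O2-PBS it was at 137, 174, 132 and 144 CPM, all above RA-PBS. The log2 fold change was 0.28 (SE 0.1, adjusted p = 0.0961). It was 0.31 with the Y-linked covariate (adjusted p = 0.139) and 0.21 with the length and GC correction (adjusted p = 0.198). The inhibitory subunit Pde6h had a log2 fold change of 0.20 (adjusted p = 0.479).

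Neither opsin passed. Opn1sw was at 361, 234, 265 and 328 CPM in RA-PBS and at 349, 399, 341 and 338 CPM in O2-PBS, so RA-PBS animals 2 and 3 were the low retinas and animal 1 lay within the O2-PBS range. The log2 fold change was 0.26 (SE 0.13, adjusted p = 0.279). Opn1mw was at 150.4, 144, 148 and 127 CPM in RA-PBS and at 121, 146, 119 and 150.4 CPM in O2-PBS, with a log2 fold change of -0.09 (SE 0.1, adjusted p = 0.666). The 2 groups of Opn1mw covered nearly the same range.

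The remaining 4 members did not pass either. Gnat2, the alpha subunit, averaged 133 ± 19.2 CPM (SD, n = 4) in RA-PBS and 123 ± 16.4 in O2-PBS. Gngt2, the gamma subunit, averaged 38.4 ± 11.6 and 35.8 ± 7.43 CPM. The channel subunit Cnga3 averaged 16.9 ± 1.91 and 17.6 ± 1.26 CPM, and its partner Cngb3 averaged 18.9 ± 4.36 and 15.4 ± 1.5 CPM. Cngb3 had a log2 fold change of -0.30 (adjusted p = 0.28), and the other 3 were between -0.12 and 0.06.

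**Figure D2:**
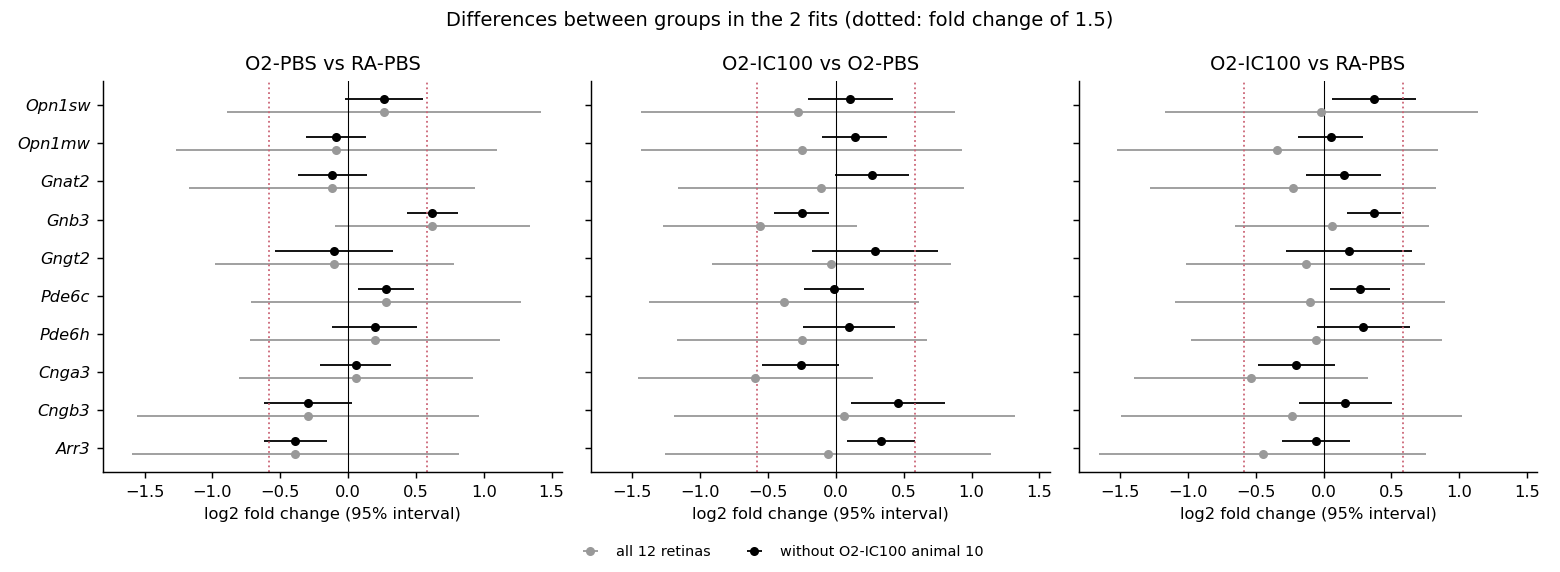
Log2 fold change of each cone gene (x axis) with its 95% interval in edgeR fits of all 12 retinas (grey) and without O2-IC100 animal 10 (black), 1 panel per comparison, dotted lines at a fold change of 1.5. The grey intervals include 0 for every gene, and Gnb3 between O2-PBS and RA-PBS is the only black point past a dotted line.

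IC100 was compared with PBS after hyperoxia. Without animal 10 edgeR called no member, against 0.947% of genes called, and none passed an adjusted p under 0.1, against 1.31%. DESeq2 called none as well. An unadjusted p under 0.05 was reached by 3 of 10 members (Gnb3, Cngb3 and Arr3), against 19.2% of all genes. The median log2 fold change was 0.12 with 7 of 10 members higher, beside 0.00 for all genes. The members' median was -0.25 among all 12 retinas, with 1 higher and 9 lower. Groups did not overlap for 5 of 10 members, but 35.2% of all genes did not overlap in this comparison of 3 retinas with 4.

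Gnb3 was at 354, 371 and 379 CPM in O2-IC100 animals 9, 11 and 12, below every O2-PBS retina. The log2 fold change was -0.25 (SE 0.09, adjusted p = 0.197). Arr3 was at 216, 179.8 and 175 CPM, above every O2-PBS retina, with a log2 fold change of 0.33 (SE 0.12, adjusted p = 0.186). For both genes these 3 O2-IC100 retinas lay on the RA-PBS side of the O2-PBS retinas. Among all 12 retinas the log2 fold change was -0.56 for Gnb3 (adjusted p = 0.37) and -0.06 for Arr3 (adjusted p = 0.959), so that of Arr3 changed sign. This comparison and that of O2-PBS with RA-PBS share the O2-PBS retinas.

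Cngb3, the channel's modulatory subunit, was at 18.8, 23.3 and 20.5 CPM in O2-IC100 and at 14.3, 17.5, 14.4 and 15.3 CPM in O2-PBS. The log2 fold change was 0.46 (SE 0.16, adjusted p = 0.187), the largest of the 10. Its partner Cnga3, which forms the pore, was at 15.9, 16.1 and 11.9 CPM in O2-IC100 and at 17, 19.5, 16.7 and 17.3 CPM in O2-PBS, a log2 fold change of -0.26 (adjusted p = 0.292). The 2 channel subunits had opposite signs, neither past the test. Gnat2 averaged 146 ± 10.6 CPM (SD, n = 3) against 123 ± 16.4, log2 0.26 (adjusted p = 0.27), and the log2 fold changes of Opn1sw and Opn1mw were 0.11 and 0.14. With animal 10 included Cngb3 had 0.06, Cnga3 -0.59, Gnat2 -0.11, Opn1sw -0.28 and Opn1mw -0.25, so the last 3 changed sign.

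Y-linked RNA was present in all 3 of these O2-IC100 retinas and in 1 of the 4 O2-PBS retinas. With the Y-linked covariate the log2 fold change of Arr3 was 0.16 (adjusted p = 0.513) and that of Cngb3 was 0.68 (adjusted p = 0.122). In a fit of only these 2 groups, whose spread does not include RA-PBS, the adjusted p was 0.00846 for Gnb3, 0.00738 for Cngb3 and 0.0259 for Arr3. Their fold changes stayed under 1.5, and the share of all genes passing in this 2-group fit is not reported here. With Y-linked RNA as a term beside the groups no member passed, where 0.0599% of genes did. The X-linked Opn1mw and Arr3 had log2 differences of 0.22 each between retinas with and without it (adjusted p = 0.956 for both).

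IC100 after hyperoxia was also set beside room air. Without animal 10 edgeR called no member, against 1.56% of genes, and neither did DESeq2. Gnb3 alone had an adjusted p under 0.1, against 2.53% of genes. Its log2 fold change was 0.37 (SE 0.09, adjusted p = 0.081), a 29.1% higher level under the fold minimum. Groups did not overlap for 2 of 10 members, Gnb3 and Pde6c, against 10.7% of genes. Opn1sw had a log2 fold change of 0.37 (adjusted p = 0.234) and Pde6c of 0.27 (adjusted p = 0.232). Unadjusted p was under 0.05 for these 3 of 10 members, against 15.6% of all genes. Arr3 had -0.05, and the median of the members was 0.17, with 8 of 10 higher, beside 0.02 for all genes. With animal 10 included the members' median was -0.18, with 1 higher and 9 lower. Gnb3 then had a log2 fold change of 0.06 (adjusted p = 0.933), Opn1sw of -0.02 and Pde6c of -0.10.

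The balance of the 2 opsins was compared within each retina, where library size cancels. The ratio of Opn1sw to Opn1mw was 2.4, 1.62, 1.79 and 2.58 in RA-PBS. It was 2.88, 2.74, 2.87 and 2.24 in O2-PBS, and 2.08, 2.7 and 3.14 in O2-IC100 animals 9, 11 and 12. It was 3.08 in animal 10. The ranges of the groups overlapped. O2-PBS exceeded RA-PBS by 0.38 in mean log2 ratio (exact permutation test over retinas, two-sided, p = 0.114, 0.171 after adjustment over 3 comparisons), and the smallest p possible with 4 against 4 was 0.0286. The difference between O2-IC100 and O2-PBS was 0.02 with all retinas (exact permutation p = 0.886) and -0.04 without animal 10 (exact permutation p = 0.857). O2-IC100 exceeded RA-PBS by 0.40 (exact permutation p = 0.114), or 0.34 without animal 10 (exact permutation p = 0.229), where 3 against 4 cannot give less than 0.0571.

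The cone genes were set beside their rod counterparts, of which none was called in any comparison in either fit. Between O2-PBS and RA-PBS without animal 10 the rod counterparts had a median log2 fold change of -0.01, from -0.28 (Sag, the rod arrestin, adjusted p = 0.134) to 0.11. Gnat1 differed by log2 -0.04, Gnb1 by 0.03, Gngt1 by -0.24, Pde6b by -0.19, Pde6g by -0.05, Cnga1 by 0.01 and Cngb1 by 0.11. Between O2-IC100 and O2-PBS the rod counterparts' median was 0.13, and between O2-IC100 and RA-PBS it was 0.01. These medians were -0.17, with 9 of 10 lower, and -0.29, with 10 of 10 lower, among all 12 retinas. Both arrestins had negative values between O2-PBS and RA-PBS, with Sag not past the test, and the rod beta subunit Gnb1 differed by log2 0.03 where Gnb3 differed by 0.62.

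The summed cone level was 3.22 ± 0.182% of the summed rod level in RA-PBS (SD, n = 4) and 3.64 ± 0.0928% in O2-PBS (SD, n = 4). It was 3.78 ± 0.0561% in O2-IC100 without animal 10 (SD, n = 3) and 1.86% in animal 10. Each O2-PBS retina lay above each RA-PBS retina, and this sum was given no test. O2-PBS exceeded RA-PBS by 0.18 on the log2 scale, and by 0.031 with Gnb3 and Gnb1 left out, where O2-PBS and RA-PBS overlapped. In O2-IC100 without animal 10 the difference from RA-PBS was 0.23, and 0.21 with Gnb3 and Gnb1 left out. As the mean log2 ratio over the cone and rod gene pairs, these differences from RA-PBS were 0.090 for O2-PBS and 0.12 for O2-IC100 without animal 10. By pairs, too, O2-PBS and RA-PBS overlapped.

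**Figure D3:**
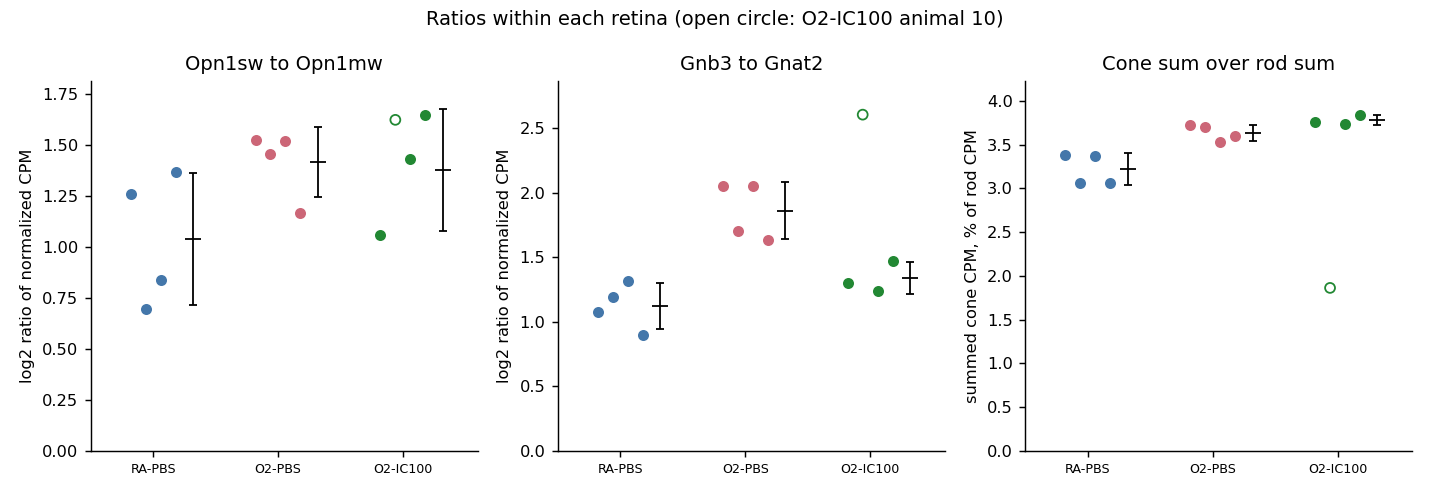
Ratio of Opn1sw to Opn1mw, ratio of Gnb3 to Gnat2 (both log2) and summed cone level as a percentage of the summed rod level (y axes) in each retina by group (x axis), with group mean and SD drawn without O2-IC100 animal 10 (open circle). The opsin ratios overlap between groups, and Gnb3 over Gnat2 is at 0.90 to 1.31 in RA-PBS and 1.63 to 2.05 in O2-PBS.

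Other genes that act on the cascade in photoreceptors were also read. Of 13 genes for shut-off, calcium feedback and chaperones, 1 was called without animal 10, between O2-PBS and RA-PBS, where 6.27% of all genes were called, and it fell. This was Guca1a, the guanylate cyclase activator that restores cyclic GMP when calcium is low. It was at 422, 326, 253 and 415 CPM in RA-PBS and at 165, 209.8, 179 and 201 CPM in O2-PBS, with no overlap. Its log2 fold change was -0.91 (SE 0.15, adjusted p = 0.0031), and among all 12 retinas -0.91 (adjusted p = 0.697). With the crystallin covariate it was -1.17 (adjusted p = 0.00227) and with the length and GC correction -0.96 (adjusted p = 0.00232), both without animal 10. In O2-IC100 it was at 257, 280.2 and 219 CPM, log2 0.43 above O2-PBS (adjusted p = 0.203). Between O2-IC100 and RA-PBS no gene of the list was called. Slc24a2, a sodium, calcium and potassium exchanger, had a log2 fold change of -0.48 there (adjusted p = 0.0603), under the fold minimum.

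None of 13 regulators of cone fate and opsin choice was called by edgeR in any comparison in either fit. Thrb, the thyroid hormone receptor needed for Opn1mw, had log2 fold changes of -0.04, -0.02 and -0.06 without animal 10, in the order O2-PBS against RA-PBS, O2-IC100 against O2-PBS and O2-IC100 against RA-PBS. Rxrg, its partner that represses Opn1sw, had -0.36, 0.25 and -0.11, the first with adjusted p = 0.136. Crx had 0.15, -0.11 and 0.05. Among all 12 retinas the last 2 values were -0.29 and -0.33 for Thrb, 1.29 and 0.93 for Rxrg, and -0.44 and -0.28 for Crx, with adjusted p of 0.287 or more. In the ON bipolar list 1 of 8 genes was called, between O2-IC100 and RA-PBS, where 1.56% of all genes were called. This was Trpm1, a cation channel of ON bipolar cells, at log2 -0.59 (adjusted p = 0.0994) without animal 10 and 0.04 (adjusted p = 0.966) among all 12 retinas. In animal 10 Trpm1 was at 764 CPM and Nyx at 37.7, each above all other retinas. The other genes of the list were lowest there, with Grm6 at 11 CPM. The cells that hold the Trpm1 RNA were not measured apart. The call of Trpm1 was lost with the length and GC correction, at -0.49 (adjusted p = 0.0724), and when any 1 further retina other than RA-PBS animal 4 was left out.

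Of 9 pigment epithelium genes, 8 were lower in O2-PBS than in RA-PBS without animal 10, and 5 were called, against 6.27% of all genes. The 5 were Rpe65, Lrat, Rdh5, Tyr and Pmel, with log2 fold changes of -0.92 to -1.70. The list summed to 87.7 to 256 normalized CPM in RA-PBS, 44.7 to 107 in O2-PBS and 121 to 127 in O2-IC100 without animal 10. It summed to 6871 normalized CPM in animal 10. All 17 lens genes tested were lower and called between the same groups, with a median log2 of -9.06. With animal 10 included no gene of either list was called. The part of these tissues in the cone results was not tested beyond the crystallin covariate.

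Levels of the members were ordered per kilobase of the longest protein-coding transcript in GENCODE M21, in RA-PBS. Gnb3 stood highest at 156 ± 13.4 CPM per kilobase (SD, n = 4), followed by Arr3 at 147 ± 17.5, Opn1sw at 123 ± 24 and Opn1mw at 116 ± 8.59. Among these genes the ranges of neighbours in the order overlapped. Gnat2 followed at 64.7, Pde6c at 41.6, Gngt2 at 24.2 and Pde6h at 14.9. Cnga3 and Cngb3 were lowest at 4.77 and 4.01. The isoform used in these retinas was not measured, and Pde6h has a listed transcript of 5940 bases. Gngt2 shares up to 115 bases of exon with Abi3 on the opposite strand, and the counts carry no strand, so its level may include Abi3 reads.

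The members did not vary as one block. Over 11 retinas, Gnat2 and Gngt2 had a Pearson r of log2 CPM of 0.91, Opn1sw and Pde6h of 0.83, and Opn1mw and Arr3 of 0.73. Opn1sw and Opn1mw had -0.03, and Gnb3 and Arr3 had -0.69. The 11 retinas come from 3 groups whose levels differ for some of these genes, so the values only describe likeness. Among 15148 genes the closest to Opn1sw were Cbfb (r 0.93), Tmem159, Gm765, Ldha and Ccdc113 (0.90). The closest to Opn1mw were Vmn2r108 (0.86), Gm49388, Zscan2, Lbh and Gm7309 (0.78). The closest to Gnat2 were Pdc (0.98), the photoreceptor protein that binds transducin beta-gamma, then Laptm4b, Gatd1, 2700062C07Rik and Eif3j1 (0.94).

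The level of short transcripts also varied between retinas. Genes under 1000 bases had a median log2 deviation of -0.25 and -0.09 in RA-PBS animals 2 and 3, 0.13 and 0.26 in animals 1 and 4, and -0.15 in O2-PBS animal 5. In animals 2, 3 and 5 Gngt2 was at 28.8, 28 and 24.8 CPM, while in animals 1 and 4 it was at 49.7 and 47.1. Pde6h was at 68.5 and 74.5 CPM in animals 2 and 3 and at 112 and 100 in animals 1 and 4. These 2 genes and Opn1sw were low in the same RA-PBS retinas, whereas Gnb3 was at 271 to 323 CPM in all 4. With the length and GC correction, the log2 fold change between O2-PBS and RA-PBS was -0.16 for Gngt2 (adjusted p = 0.625), 0.13 for Pde6h (adjusted p = 0.683) and 0.20 for Opn1sw (adjusted p = 0.324). None of the 3 passed with or without the correction. Their longest listed protein-coding transcripts have 1587 bases for Gngt2, 5940 for Pde6h and 2410 for Opn1sw. None of them was therefore among the genes under 1000 bases. The correction went by the longest listed transcript, so it did not treat these genes as short and cannot settle their part in the shift. The part of the shift of short transcripts in the likeness between members was not tested.

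**Figure D4:**
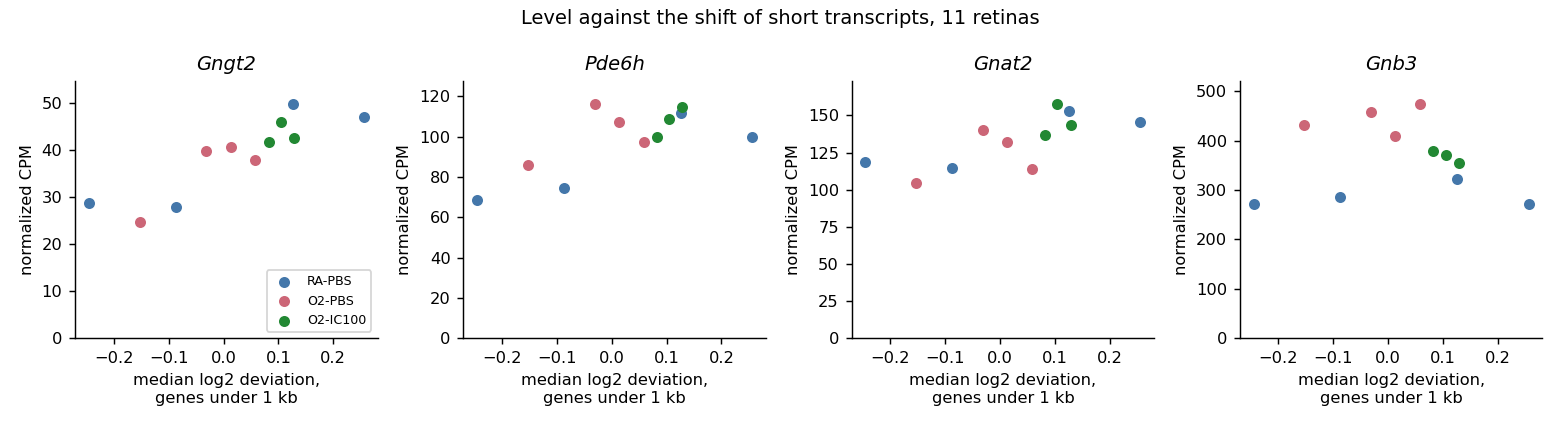
Normalized CPM of Gngt2, Pde6h, Gnat2 and Gnb3 (y axis) against the median log2 deviation of genes under 1 kb from the mean of the retinas (x axis), 1 point per retina of the 11 without animal 10, coloured by group. Gngt2 and Pde6h are lowest in the 3 retinas with the most negative shift, and the 4 O2-PBS retinas lie above all others for Gnb3.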

How the data were processed

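RNA-seq of P18 retinas from 12 mice was used. The authors quantified polyA-selected 150 bp paired-end reads against GRCm39 (release 104) with Kallisto and tximport. The deposited values are estimated counts per gene without scaling, and 42.2% are not whole. Rounded counts went into edgeR 4.0.16 (R 4.3.3) with TMM, filterByExpr, robust quasi-likelihood fit of the 3 groups with no covariate, and adjustment over all tested genes. Thresholds were a fold change of 1.5, p under 0.05 and adjusted p under 0.1. DESeq2 1.42.0, the authors' tool, was an alternative, as were other normalizations and filters, 2-group fits, Y-linked and crystallin covariates, a length and GC correction, and leaving out each animal. Depth was 14907143 to 24438082 counts per retina. The procedure was tested on simulated data.

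Groups came from the labels. The labels give intraperitoneal injection and the end of oxygen as P12, while the paper ends oxygen on the previous day. Members and lists were chosen with earlier results of these data known. Text names all 10 members with their rod counterparts, genes of other lists called in either fit (lens genes by count only), and the 5 genes closest to Opn1sw, Opn1mw and Gnat2. Thrb, Rxrg and Crx were added after their values were seen, and so were Isl1, Gng13 and Slc24a2. Some rod counterparts, and 1 other version of the cone to rod ratio, are not reported here. Gene lengths and promoter sequences came from GRCm38 references, matched by gene identifier or symbol. The alternatives of the fit without animal 10 and the length correction were chosen after seeing the data. Animals are separate mice, and spread within groups is between mice.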

Additional observations from a re-analysis of the deposited data

Results flagged for a closer look

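Of 36 sets of 4 retinas checked for a sample far from the other 3 (10 genes and 2 ratios in 3 groups), 7 were flagged, and chance flags about 1 in 20. In 6 of the 7 the retina was O2-IC100 animal 10, whose counts were 56.1% crystallin. The gap to the nearest retina as a share of the group's range was 0.853 for Gnat2, 0.911 for Gnb3, 0.883 for Gngt2, 0.836 for Pde6c and 0.848 for Pde6h, and 0.961 for the cone to rod log2 ratio. The last was Gngt2 in O2-PBS, at 0.83, where animal 5 was low at 24.8 CPM against 37.9 to 40.6 in the others.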

How the results depend on the processing

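Among all 12 retinas the count of members called between O2-PBS and RA-PBS was 0, and with 1 animal left out it was 0 to 1, the 1 being Gnb3 without O2-IC100 animal 10. It was also 1 in a fit of only the 2 groups, with DESeq2 or the Y-linked covariate without animal 10, and without RA-PBS animal 1 and animal 10. With the crystallin covariate among all 12 retinas it was 3 (Gnat2, Gngt2 and Arr3), and between O2-IC100 and RA-PBS it was 7. The Y-linked covariate among all 12 called 2 members (Gnb3 and Cnga3) between O2-IC100 and O2-PBS. The cause of these calls was not tested. The shares of all genes called under these settings are not reported here, so these counts are no result about the members. Without animal 10, the call of Gnb3 stood under every further animal left out (1 member called each time) and was lost with the crystallin covariate (0) and the length and GC correction (0). Without the fold minimum, 3 members passed between O2-PBS and RA-PBS and 1 between O2-IC100 and RA-PBS. Across the 20 alternatives without animal 10 the log2 fold change of Gnb3 was 0.49 to 0.69.

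The opsin ratio difference between O2-IC100 and O2-PBS ran from -0.060 to 0.15 with 1 retina left out. The cone to rod difference (log2) between O2-PBS and RA-PBS was 0.18, and 0.031 without Gnb3 and Gnb1 and 0.090 as the mean of pair ratios. Between O2-IC100 and O2-PBS it was -0.20, and -0.25 by pairs and 0.056 without animal 10. Without animal 10, Gnb3 and Gnb1 it was 0.18. Between O2-IC100 and RA-PBS it was -0.02, and -0.14 without Gnb3 and Gnb1, -0.16 by pairs and 0.23 without animal 10. By pairs without animal 10 it was 0.12. No paired analysis was possible because animals are numbered 1 to 12 and the groups share no number.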
